A study of Caenorhabditis elegans with 3 samples.

Results

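The members described here are 1908 autosomal peaks of chromatin immunoprecipitation followed by sequencing (ChIP-seq) that had their summit in an exon of a protein-coding gene and away from every promoter. They were chosen from the pooled list of 11533 peaks, of which 9803 lay on the 5 autosomes. The window taken as promoter began 1000 bp before any transcript start and ended 200 bp after it. The members made up 19.5% of the autosomal pooled peaks. Of them, 1379 had the summit in coding sequence, 491 in a 3' UTR, 28 in a 5' UTR, and 10 in an exon of a protein-coding gene that was neither. The other autosomal peaks comprised 4761 in promoter windows, 1898 in introns, 1172 in intergenic sequence and 64 in exons of other kinds of gene.

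The experiment mapped the product of R02D3.7, now named rcat-1, in whole L4 larvae of Caenorhabditis elegans, with the sex recorded as males and females pooled. All 3 samples were of strain OP218, genotype unc-119(ed3) III; wgIs218, in which an inserted transgene makes the protein fused to eGFP. A note on replicate 3 gives the tag as GFP-FLAG at the C-terminus. There were 3 biological replicates of 1 group, without a second condition, and a control alignment shared by the replicates was not analysed here. The labels of replicates 1 and 2 state the range of fragment sizes and the CGC strain collection as source, whereas that of replicate 3 states sonication with a microtip and the producing laboratory as source. Whole larvae mix all tissues, so a weak peak in every cell and a strong peak in few cells cannot be told apart.

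A transcription factor crosslinked to chromatin gives most of its strong ChIP-seq peaks at promoters and enhancers, where the DNA is open. An exon can overlap a regulatory element or an unannotated start, and a gene's last exon carries the stop codon, the 3' UTR and the site where the transcript is cut. Genes of C. elegans lie close together, so the 3' end of one gene is often within a short distance of the next gene.

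The sequences that bear on the description are shown here in stretches of 30 bases from the WBcel235 genome (ce11). A search was made for the 6-mer CGTAAA and its extension to the 8-mer CGTAAATC, on either strand within 50 bp of the summit, because earlier results from these data had named the 6-mer. Of the 1908 members, 5 held the 8-mer, and they were picked out after their values were seen. 4 of them are given below with the 8-mer in capitals. They are C05D11.5 (III:6411589-6411618, plus strand, 5' UTR), gdi-1 (IV:14790829-14790858, minus strand, 3' UTR), CC8.2 (IV:3645150-3645179, minus strand, 3' UTR) and ZC155.4 (III:5212547-5212576, plus strand, coding).
C05D11.5: gcgtggtttatCGTAAATCgacaattgaga
gdi-1: aaagtccgcttCGTAAATCtataaatcact
CC8.2: ctacggcacccCGTAAATCgattttttttg
ZC155.4: cagtttctccaCGTAAATCcagtcagaatc

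Only C05D11.5 combined the 8-mer with a strong peak: its signal in the pooled list was 39.7 at rank 333, and the nearest base of the 8-mer was 3 bp from the summit. The peaks at gdi-1, CC8.2, suco-1 and ZC155.4 had signals of 12.95, 12.3, 12.2 and 10.95 at ranks 5906, 6855, 7137 and 9743. The other sequences shown are of 3 strong 3' UTR members, with the letters AATAAA, the usual signal for cleavage and polyadenylation, in capitals on the strand of the gene. They are eef-1A.1 (III:6970087-6970116, minus strand), nlp-24 (V:11616796-11616825, plus strand) and nhr-46 (IV:5747381-5747410, minus strand).
eef-1A.1: tgttgatttttgAATAAAttatcaactctt
nlp-24: caccaaccaaaaAATAAAcgatttttcatt
nhr-46: tttgacctgagaAATAAAtttcttcgtgga

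These 3 summits lay 57, 34 and 40 bp from the annotated end of their gene, so the peaks cover the place where the transcript is cut. AATAAA was found on either strand within 50 bp of 187 of the 491 summits in 3' UTRs (38.1%), and near 41.5% of all 3' UTR positions away from promoters. The share in 3' UTR members was thus not above that of 3' UTRs at large.

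Members were unevenly spread over the exons. The 3' UTRs held 297 pooled summits per Mb and coding sequence 92.1 per Mb, when each class was measured over its own sequence outside promoter windows. Introns held 88.5 per Mb, intergenic sequence 83.5 per Mb and promoter windows 165 per Mb. The 28 members in 5' UTRs came to 132 per Mb. Coding exons therefore held about as many peaks as introns, whereas 3' UTRs held more than promoter windows did.

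The same classes were counted in the 11533 strongest peaks of each replicate list. The 3' UTRs held 236, 238 and 276 summits per Mb in replicates 1, 2 and 3, and coding sequence held 84.9, 118 and 95.4 per Mb. The 3' UTR density was higher than the coding density in all 3 replicates and the values did not overlap. The ratio of the 3' UTR density to the coding density was 3.23 in the pooled list and 2.57 ± 0.476 in the replicate lists (SD, n = 3; exact sign-flip test of the log2 ratios, two-sided, p = 0.25, the smallest that 3 replicates allow). Against introns, the 3' UTR density was 2.71 ± 0.262 times as high, and against promoter windows 1.60 ± 0.190 times (SD, n = 3; exact p = 0.25 each). The coding density was 1.08 ± 0.212 times that of introns (SD, n = 3; exact p = 0.75), and it was lower than in introns in replicate 1 and higher in replicates 2 and 3. Replicate 2 stood apart with 18.2% of its autosomal peaks in coding sequence, against 13.1% in replicate 1 and 14.8% in replicate 3. Nothing in the labels says that the replicates share a culture or a day, and the p-values measure the spread between these libraries only.

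**Figure D1:**
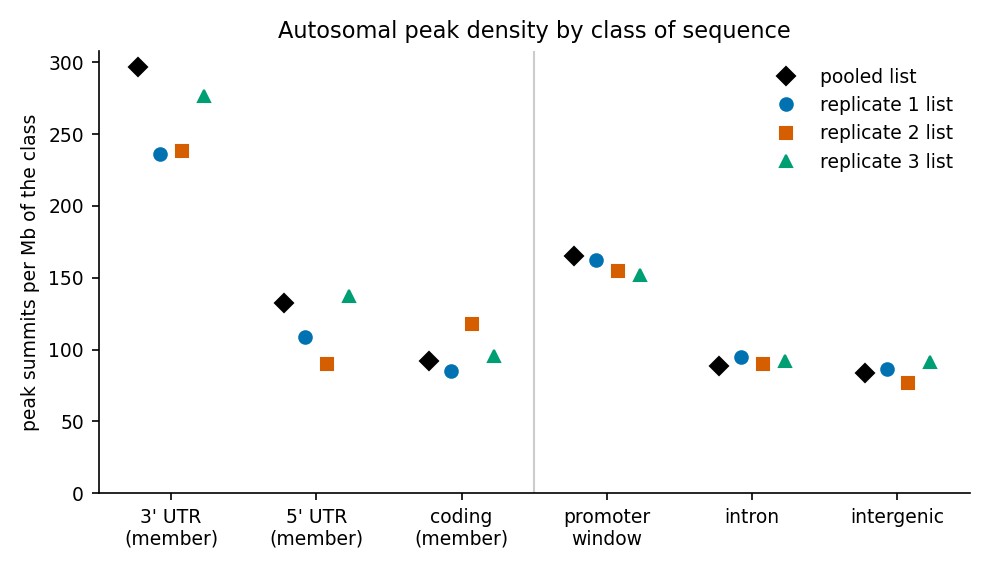
Peak summits per Mb of each class of autosomal sequence, in the pooled list (diamonds) and in the strongest 11533 peaks of replicates 1, 2 and 3, with the member classes left of the grey line. The 3' UTR points (236 to 297 per Mb) lie above those of the other 5 classes drawn, and the coding points (84.9 to 118 per Mb) lie close to those of introns and intergenic sequence (76.4 to 94.9 per Mb), replicate 2 being the highest.

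On each of the 5 autosomes the 3' UTR density exceeded the coding density. The ratio was 3.50 on chromosome I, 3.29 on II, 3.64 on III, 2.99 on IV and 2.60 on V. With each chromosome divided into 3 equal parts, the middle part held 129.9 members per Mb of exon, the first 99.01 per Mb and the last 103.4 per Mb. In 3' UTRs the density was 362 per Mb in the middle part, 229 per Mb in the first and 282 per Mb in the last.

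Most members were weak peaks. The deposited signal, the strength that the authors' peak caller gave a peak, had a median of 12.7 in the members and of 13.2 in the other autosomal peaks, within a pooled list that runs from 10.3 to 901. The largest signal of any member was 51.3, whereas introns reached 214 and intergenic sequence 794. By class the median was 13.9 in UTRs, 12.3 in coding sequence, 12.4 in introns and 13.8 in promoter windows. Among the 1000 strongest pooled peaks were 61 members, 43 of them in UTRs and 18 in coding sequence.

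The share of coding peaks grew down the ranking, and that of 3' UTR peaks did not. Coding members made up 0.610% of the autosomal peaks at ranks 1 to 390, 3.04% from rank 391 to 1000, 8.36% of the next 1000 ranks and 17.2% beyond rank 5000. For 3' UTR members the shares in the same ranges were 0.915%, 6.65%, 7.90% and 4.21%. The 3' UTR share was thus highest from rank 391 to 2000, just below the strength of the thresholded peaks.

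The authors' thresholded list, made by the irreproducible discovery rate (IDR, a measure of how repeatable a peak's rank is), held 8 of the 1908 members (0.419%, exact 95% interval 0.181% to 0.825%). The share was 3.35% of all autosomal pooled peaks, 6.18% of those in promoter windows, and 0.847% of those in introns and intergenic sequence away from promoters. UTR members reached the list in 6 of 519 cases (1.16%, interval 0.425% to 2.499%) and coding members in 2 of 1379 (0.145%, interval 0.0176% to 0.523%). The UTR cases were 3 of 28 in 5' UTRs (10.7%, interval 2.27% to 28.2%) and 3 of 491 in 3' UTRs (0.611%, interval 0.126% to 1.775%). All intervals are exact Clopper-Pearson intervals, treat peaks as independent and cover counting error only. Since the 390 thresholded peaks were the 390 strongest of the pooled list, this share and the signal are not separate measurements.

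The strongest member lay in lmd-2 (WBGene00015008), which encodes a protein with a LysM domain, on chromosome I from 4645386 to 4645815, with the summit in coding sequence of the last of 3 exons. Its signal was 51.3 in the pooled list and 19.7, 14.7 and 19.3 in the lists of replicates 1, 2 and 3. The summit was 58 bp from the end of lmd-2 and 61 bp from the end of rpl-4, a gene of the large ribosomal subunit that converges on lmd-2 with a gap of 3 bp. All replicates placed it among their 400 strongest peaks, at ranks 304, 324 and 213, and rpl-4 had a thresholded peak in its own promoter window too. The nearest other thresholded summit was 1633 bp away.

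The next members were in 3' UTRs. cpr-9 (WBGene00010204), of a family of cysteine proteases, had a signal of 48.1 on chromosome V from 12004348 to 12004777, with 22.1, 10.4 and 15.5 in replicates 1, 2 and 3. Its summit was 21 bp from the end of the gene, and the convergent gene F57F5.3 ended 27 bp beyond. eef-1A.1 (WBGene00001168), which encodes translation elongation factor 1 alpha, had a signal of 43.2 on chromosome III from 6969868 to 6970297, with 17.4, 10.6 and 16.5 in the replicates. That summit was 57 bp from the end of the gene and lay in an exon of F31E3.12 as well, so it cannot be assigned to 1 of the 2 genes. lin-42 (WBGene00018572), the worm relative of the period genes and a timer of larval development, had a signal of 42.8 on chromosome II from 1233733 to 1234162. It had 14.6 in replicate 1 and 11.4 in replicate 3, and no peak in replicate 2. The lin-42 summit lay 677 bp downstream of a lin-42 transcript start and 712 bp from the end of the gene, and so differed from the other members in 3' UTRs just described.

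The 5' UTR members of the thresholded list were at set-23, C05D11.5 and C34C12.2. set-23 (WBGene00021515), named for its SET domain, a fold of histone methyltransferases, had a signal of 40.2 on chromosome IV from 1601649 to 1602078, with 32.1 in replicate 1, none in replicate 2 and 12.3 in replicate 3. Its summit was 207 bp downstream of the start, 7 bp past the limit of the promoter window. C05D11.5 (WBGene00015483) had 39.7 on chromosome III from 6411382 to 6411811, with 30.8, none and 8.23 in the replicates; the summit was 417 bp from the start, and 19 bp from the end of nas-4, an astacin-type protease gene whose exon it also touched. C34C12.2 (WBGene00007921) had 37.4 on chromosome III from 3456197 to 3456626, with 7.75, 18.2 and 12.1; the summit was 2626 bp downstream of the start, inside a first exon of 2829 bp. The last of the 8, C36E8.4 (WBGene00007983), was coding, on chromosome III from 4015466 to 4015895, with 38.9 in the pooled list and 19.2, none and 14.7 in the replicates. It lay 98 bp from the end of its gene, and the tubulin gene tbb-2 converged on it across 131 bp.

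4 of these 8 members had no peak in replicate 2 whose summit fell in the interval, and each of the 8 had one in replicates 1 and 3. Support by all 3 replicates, as defined below, was found for 4 of the 8 (50%), against 298 of all 328 autosomal thresholded peaks (90.9%). It was found for 275 of 294 in promoter windows (93.5%) and 19 of 26 in introns and intergenic sequence (73.1%). The 8 members ranked 245 to 360 in the pooled list, and rank was not held equal in these shares. In 5 of the 8 the summit was within 100 bp of the end of a protein-coding gene, on either strand, as it was in 281 of all 1908 members (14.7%). The members at lin-42, set-23 and C34C12.2 were the exceptions. The plot of these members shows ranks, since signals are not on 1 scale between lists.

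**Figure D2:**
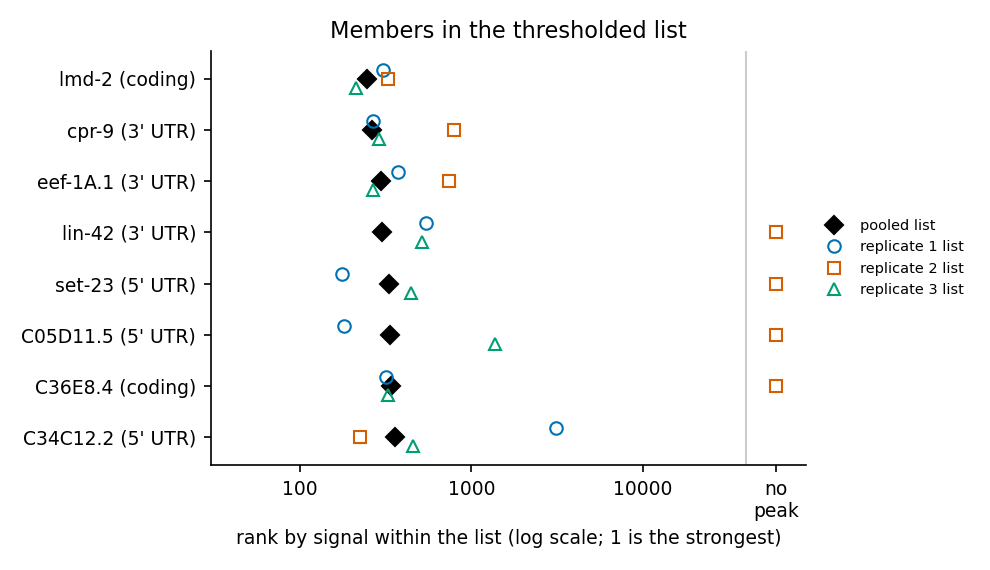
Rank by signal, on a log axis, of the 8 members of the thresholded list in the pooled list (diamonds) and in the lists of replicates 1, 2 and 3 (open symbols), from the strongest member at the top. The members at lin-42, set-23, C05D11.5 and C36E8.4 have no peak in replicate 2, drawn right of the grey line, while lmd-2 ranks 304, 324 and 213 in the replicates.

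The 12 strongest UTR members had signals of 30.4 to 48.1, and 7 of them had the summit within 100 bp of a gene end. The 12 took in set-23, C05D11.5 and C34C12.2, which were in 5' UTRs. Over all members, the summit was that near an end in 217 of 491 in 3' UTRs (44.2%) and in 3 of 28 in 5' UTRs (10.7%). After the thresholded ones came ced-5, an engulfment gene (35.1), tag-307 (34.9), the neuropeptide gene nlp-24 (34.7), the nuclear hormone receptor gene nhr-46 (34.5), the phosphodiesterase gene pde-6 (33.1) and the mevalonate kinase gene mvk-1 (30.4). The ced-5 summit was 2 bp from the end of the gene, lay in an exon of tax-6 as well, and had 7.11, 11.4 and 15.1 in replicates 1, 2 and 3. At tag-307 the summit was 5 bp from the end, the ribosomal protein gene rpl-35 converged on it with a gap of 2 bp, and the replicates gave 8.60, 8.83 and 16.3. In nhr-46 they gave 10.9, 10.9 and 8.23. nlp-24 was without a peak in replicate 1, and mvk-1 in replicate 3. The pde-6 member, absent in replicate 2, was 1 of 7 members in which at least 50% of the 31-mers round the summit occurred more than once in the genome. Its reads may therefore be harder to place, which was not tested.

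The 12 strongest coding members ran from 25.6 to 51.3, and 5 of them were within 100 bp of a gene end, as were 59 of all 1379 coding members (4.28%). After lmd-2 and C36E8.4 came ubr-4, of a family of ubiquitin ligases (32.1), dos-3 (31.2), C06E7.4 (29.7), the glutamyl-tRNA synthetase gene ears-2 (27.5), the myosin light chain gene mlc-4 (27.5), spo-11, which makes the meiotic DNA breaks (27.3), taf-9 (27.1), F53A3.7 (26.7), pals-26 (25.7) and ZK112.4 (25.6). ubr-4 was the exception in position, with its summit in exon 8 of 23 and 16381 bp from the end of the gene; it had 16.97 in replicate 1 and 3.53 and 4.12 in replicates 2 and 3. dos-3 gave 6.72, 10.5 and 12.4 with its summit 75 bp from its own end and 12 bp from that of zip-2. spo-11 gave 9.34, 5.58 and 11.3, and its summit was 75 bp from its own end and 53 bp from that of enpl-1, an endoplasmic reticulum chaperone gene. In dos-3 and spo-11 the nearest gene end was thus that of another gene.

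The distance to the nearest end of a protein-coding gene, on either strand, was measured for all members. In coding sequence the density was 164 per Mb within 100 bp of an end, 84.1 per Mb between 500 and 1000 bp and 86.9 per Mb beyond 2000 bp. In 3' UTRs it stayed between 282 and 318 per Mb up to 1000 bp from an end, and was 125 per Mb beyond 2000 bp, the last from 5 members. Intergenic peaks away from promoters showed a gradient like that of coding sequence, with 169 per Mb within 100 bp of an end and 71.9 per Mb beyond 2000 bp. Introns had 1 pooled peak within 100 bp of an end (19.97 per Mb), over 0.0501 Mb. They had 138 per Mb between 100 and 250 bp (38 peaks), 106 per Mb between 250 and 500 bp and 91.6 per Mb beyond 2000 bp.

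The mix of classes changed with the distance: 217 of the 281 members within 100 bp of an end were in 3' UTRs and 59 in coding sequence, whereas 428 of the 444 beyond 2000 bp were coding and 5 were in 3' UTRs. Strength and support are therefore given by class. All 3 replicates supported 8 of the 59 coding members within 100 bp (13.6%) and 4 of the 428 beyond 2000 bp (0.935%), with median signals of 13.9 and 12.2. In 3' UTRs the share with full support was 11.5% within 100 bp, 11.4% between 100 and 250 bp, 9.21% between 250 and 500 bp, 6.52% between 500 and 1000 bp and 13.3% between 1000 and 2000 bp, the last from 15 members. Support thus differed with distance in coding members, and showed no steady course in 3' UTR members. With the coding sequence divided into 10 equal parts from start to stop, the density was 69.4 to 99.95 per Mb in the first 8 parts, 106 per Mb in the next and 134 per Mb in the last.

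The gradient was not equal in the replicates. In coding sequence the density within 100 bp of an end was 1.81, 1.02 and 1.54 times that beyond 2000 bp in replicates 1, 2 and 3 (mean 1.46 ± 0.401 SD, n = 3; exact sign-flip test, two-sided, p = 0.25), so replicate 2 had almost no gradient there. In 3' UTRs the ratios were 1.71, 0.936 and 1.997 (mean 1.55 ± 0.550 SD, n = 3; exact p = 0.5), and replicate 2 ran the other way; they rest on 6, 9 and 6 peaks beyond 2000 bp. For all member classes together the ratios were 2.89, 1.496 and 2.73, but these set mostly 3' UTR peaks near ends against mostly coding peaks far from them, and 3' UTRs were denser at any of these distances. Replicate 2 was also the one with the most coding peaks, and its density in coding sequence beyond 2000 bp was 120 per Mb, against 73.9 in replicate 1 and 88.9 in replicate 3. Intergenic peaks had ratios of 1.96, 2.11 and 2.27, a narrower range. Introns had 1.03, 1.34 and 2.46, from 5, 6 and 11 peaks within 100 bp of an end.

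**Figure D3:**
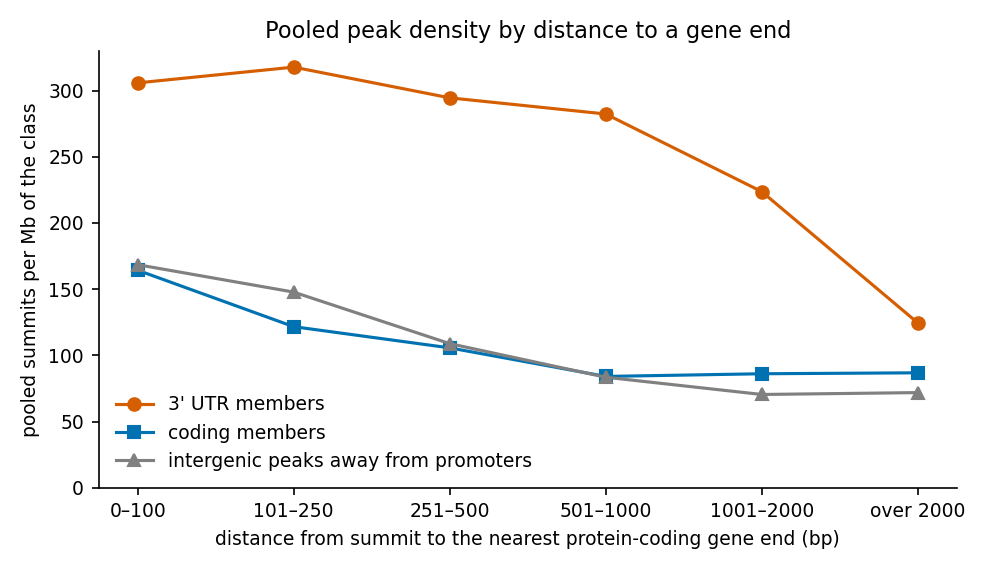
Pooled summits per Mb of the class by distance from the summit to the nearest end of a protein-coding gene on either strand, for 3' UTR members, coding members and intergenic peaks away from promoters. Coding members fall to 84.1 per Mb between 500 and 1000 bp, against 164 per Mb within 100 bp, and intergenic peaks follow the same course. The last 3' UTR point (125 per Mb) rests on 5 members.

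Within 3' UTRs the density was similar for each orientation of the next gene, taken as the first protein-coding gene wholly past the host's end. A gene that overlapped the end was passed over, as F31E3.12 was at eef-1A.1. Some members at overlapping convergent ends are thus counted as before a distant gene, in the densities and in the support below. The density was 317 per Mb where the next gene converged from within 500 bp (91 members), 297 per Mb where a converging gene was farther away (163 members) and 291 per Mb where a gene in the same direction was farther than 500 bp (236 members). Another 12 members lay before a close gene in the same direction, and a member in the 3' UTRs of 2 genes is counted under each. Full support by the replicates was given to 17 of the 91 members at close convergent ends (18.7%) and to 20 of the 236 before a distant gene in the same direction (8.47%). Of the 491 members in 3' UTRs, 485 lay in the last exon of the transcript, at a median of 145 bp from the end of the gene. Of the 1379 coding members, 265 were in the last exon and 50 in the first, at a median of 1439 bp from the end.

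Whether the replicates found the same members was asked next. A replicate supported a member when one of its 11533 strongest peaks had the summit inside the member; since the pooled list was called from the same reads, such support is not independent of it. All 3 replicates supported 84 of 1908 members (4.40%, exact 95% interval 3.53% to 5.42%), against 9.49% of all autosomal pooled peaks. The share was 10.8% in UTR members (56 of 519), 2.03% in coding members (28 of 1379), 4.98% in introns and intergenic sequence (153 of 3070) and 14.4% in promoter windows. Exactly 2 replicates supported 489 members, 1 replicate 1005, and none 330.

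Taken one replicate at a time, 38.8%, 41.7% and 36.6% of the members were supported by replicates 1, 2 and 3, against 49.2%, 42.8% and 42.6% of the other autosomal peaks. The difference was −5.82 ± 4.62 percentage points (SD, n = 3; exact sign-flip test, two-sided, p = 0.25), and it was negative in all 3 replicates. Set against introns and intergenic sequence alone, the difference was 0.306 ± 4.73 points (exact p = 1), with its sign differing between replicates. Coding members were supported in 35.97%, 39.9% and 31.2% of cases and UTR members in 46.6%, 46.6% and 50.9%. That difference was −12.4 ± 6.64 points and was again negative in each replicate (SD, n = 3; exact p = 0.25). Rank was not held equal in these differences.

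The 6-mer CGTAAA was near 48 of 1908 member summits (2.52%, exact 95% interval 1.86% to 3.32%) and near 2.85% of all exonic positions away from promoters. It was near 11.8% of the peaks in introns, where 5.09% of positions have it, near 9.22% of intergenic peaks (4.34% of positions) and near 8.38% of promoter peaks (4.21% of positions). The ratio of peaks to positions was 0.883 in members, 2.31 in introns, 2.12 in intergenic sequence and 1.99 in promoter windows. The 8-mer gave 1.09 in members, from 5 peaks, against 6.85 in introns, 7.55 in intergenic sequence and 7.73 in promoters. The 6-mer is part of the 8-mer, so these are not separate measurements.

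In the replicate lists the ratio over all member classes was 0.865, 0.994 and 0.912 in replicates 1, 2 and 3, and in introns it was 1.98, 1.60 and 1.46. Members, most of them coding, were below 1 and introns above 1 in each list (exact sign-flip test of the log2 ratios, two-sided, p = 0.25 for either class). Since the 6-mer was named in earlier results from these same data, its excess in introns is not an independent finding. The 3' UTR members alone had 1.24, 1.02 and 0.705, above 1 in 2 of the 3 lists (exact p = 1). In the stronger peaks the contrast was wider: 3 of the 61 members among the 1000 strongest pooled peaks had the 6-mer, namely 1 of 8 at ranks 1 to 390 and 2 of 53 from rank 391 to 1000. In introns and intergenic sequence it was 17 of 26 and 32 of 107. The 1 thresholded member with the 6-mer was C05D11.5.

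**Figure D4:**
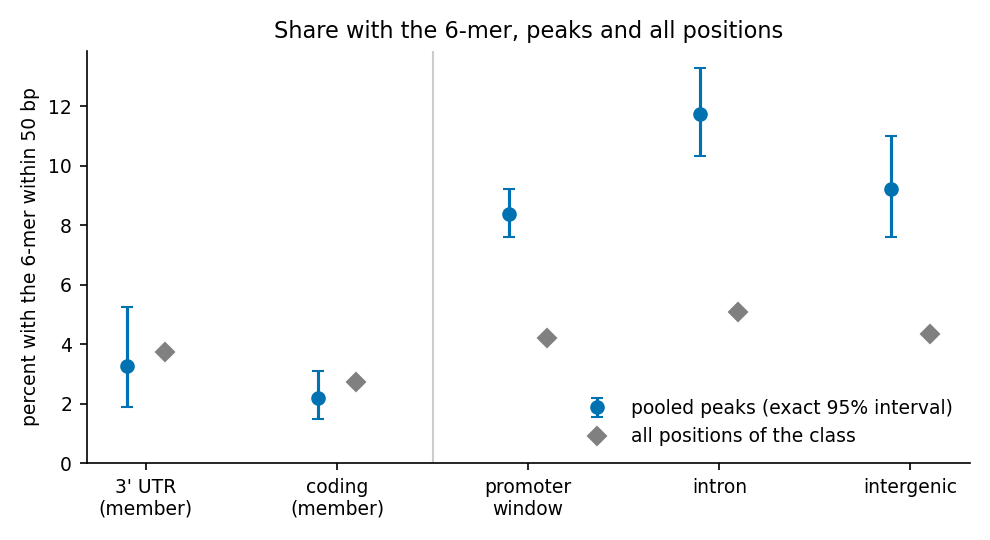
Percent of pooled peaks (circles, with exact 95% intervals) and of all positions of the same class (diamonds) with the 6-mer on either strand within 50 bp, for the member classes left of the grey line and the other classes right of it. Peaks in 3' UTRs and coding sequence have intervals that include the value of their positions, while peaks in promoter windows, introns and intergenic sequence lie above theirs.

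Other 6-mers of the earlier results were near shares of members not far from those of positions. CGACAC was near 2.57% of members (2.91% of positions), ACACTC near 3.46% (3.05%) and ACGCGC near 0.734% (0.579%). In promoter peaks the values were 5.42% (2.585%), 5.29% (3.02%) and 4.35% (1.46%), and CGACAC was near 6.64% of intron peaks (2.71%). By class, ACGCGC was near 0.363% of coding members (0.545%) and 1.43% of 3' UTR members (0.737%), from 5 and 7 peaks. The median G+C within 50 bp of the summit was 39.6% in members and 35.6% in the other autosomal peaks. It was 41.6% in coding members, where coding sequence as a whole has 42.7%, and 31.7% in 3' UTR members, where 3' UTR sequence has 30.2%. Members thus had the base composition of the exons they lay in.

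The members fell in 1623 genes, 10.5% of the 15397 autosomal protein-coding genes that had any exonic sequence away from promoters. 1376 of these genes held 1 member, and 16 held 4 or more. Since longer exons can hold more peaks, the lists of genes below are given with their members per Mb of such exon, which was 111.9 over all genes. The lists were drawn up by gene symbol with earlier results of these data known.

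The lists differed in their members per Mb. The ribosomal protein genes had 7 members in 7 of 40 genes, 664 per Mb, the translation factors 11 members in 7 of 29 genes (383 per Mb), the chaperones 14 members in 13 of 47 genes (259 per Mb) and the splicing and RNA-binding genes 24 members in 17 of 74 genes (233 per Mb). Chemoreceptor genes had 45 members in 45 of 1301 genes (50.5 per Mb), the F-box, MATH and BTB genes 12 members in 12 of 388 (39.5 per Mb), and C-type lectin genes 13 in 13 of 227 (70.9 per Mb). Genes of germline and meiosis came to 183 per Mb, cuticle collagens to 133, muscle structure to 122.8, nuclear hormone receptors to 96.3, kinesins, dyneins and tubulins to 96.4 and sperm proteins to 55.8. The ribosomal value rests on 7 peaks over 0.0106 Mb, since 40 of the 79 genes had any exonic sequence outside promoter windows. Coding and 3' UTR sequence were not kept apart in these lists, though 3' UTRs were denser (297 against 92.1 per Mb). The part of this mix in the list values was not tested.

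A second count, added after the first was seen, asked for a member within 500 bp of the end of a gene, whichever gene held it. Over all genes with exonic sequence there, 1097 of 13636 (8.05%) had such a member. Among ribosomal protein genes it was 18 of 65 (27.7%), among chaperones 8 of 34 (23.5%), among kinesins, dyneins and tubulins 7 of 32 (21.9%), and among splicing and RNA-binding genes 13 of 64 (20.3%). It was 27 of 1060 among chemoreceptors (2.55%) and 9 of 317 among F-box, MATH and BTB genes (2.84%). Histones (0 of 13), basement membrane and adhesion genes (1 of 11) and the single vitellogenin gene on an autosome (0 of 1) had too few ends to describe. Transcript levels in these larvae were not analysed here, and no test was made of the order of the lists.

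**Figure D5:**
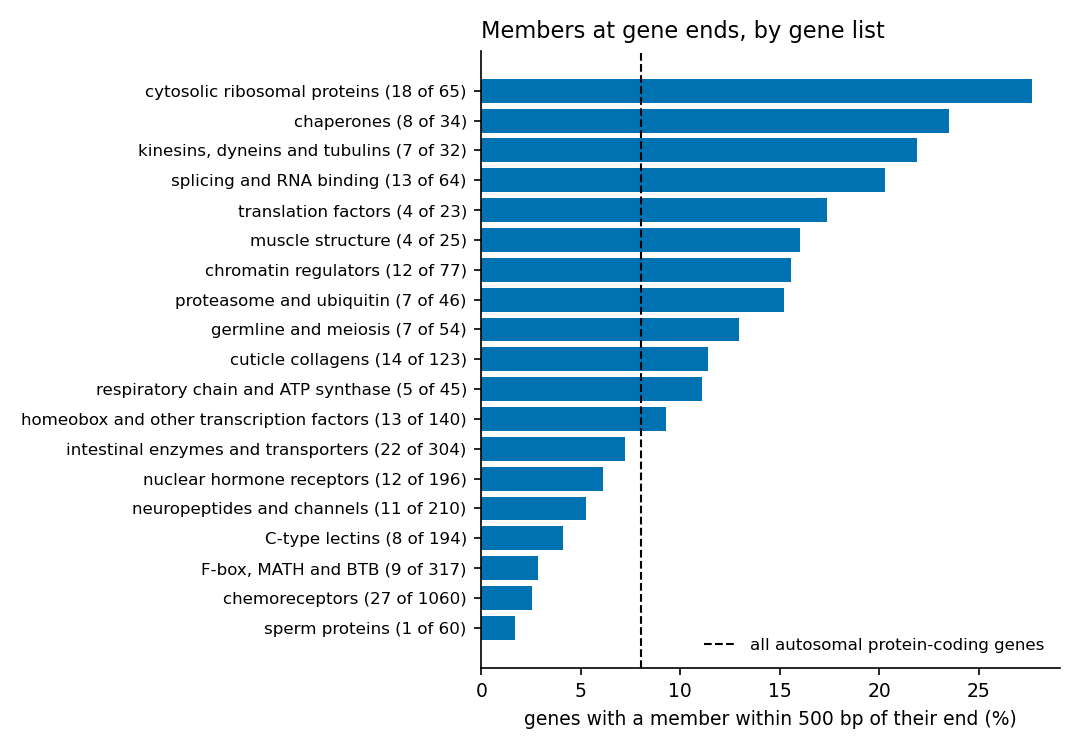
Percent of the genes of each list that have a member within 500 bp of their annotated end, for lists with at least 20 such ends; the numbers of genes stand beside the names, and the dashed line is the value over all autosomal protein-coding genes (8.05%). Ribosomal protein genes (18 of 65) are at the top and sperm protein genes (1 of 60) at the bottom.

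The 19 members near ribosomal protein gene ends lay mostly in the neighbour: 7 of the 18 genes held the member in an exon of their own. The choice of members bears on this. Of the 79 ribosomal protein genes, 40 had exonic sequence of their own outside promoter windows, whereas 65 had such sequence of any gene near their end. The strongest were those at lmd-2 beside rpl-4 (51.3) and tag-307 beside rpl-35 (34.9), described above, then F53A3.7 beside rps-22 (26.7), and rpl-3 itself (25.7). In rpl-3 the summit was in the 3' UTR, 19 bp from the end, the gene tir-1 converged on it with a gap of 3 bp, and the replicates gave 8.87, 12.1 and 16.7. All 3 replicates supported 6 of the 19, and the median signal was 15.2. The rpl-3 member and one in tir-1 (13.96), 192 bp from the same end, drew on the same replicate peaks. Of the 18 genes, 8 also had a thresholded peak in their own promoter window, a share that was not counted for other genes. 1 of the 19 members lay within 1000 bp of another thresholded summit. The rule bears on this number, since no member can lie in a promoter window. Members at the ends of those 8 genes were 959 to 2191 bp from the nearest other thresholded summit. At the ends of the remaining genes the distance was 10936 bp or more. The part of these promoter peaks in the values at the ends was not tested. Among chaperone gene ends, the strongest member lay in the 3' UTR of nra-1, 176 bp from the end of hsp-1, a gene of the HSP70 family, with a signal of 29.9 in the pooled list and 13.03, 2.89 and 13.3 in replicates 1, 2 and 3.

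Other named members of the lists were weaker. The translation elongation factor gene eef-2 had a coding peak with a signal of 22.96 at 1299 bp from its start, with 3.54, 7.87 and 7.10 in replicates 1, 2 and 3. Among transcription factors, hlh-30, a regulator of autophagy and fat use, had a 3' UTR peak (22.8; replicates 11.9, 7.06 and 6.72) 57 bp from its end. The molting regulator nhr-23 had one of 18.5 that was lacking in replicate 1, and blmp-1 one of 19.04. In the germline list csr-1, an Argonaute gene, had a coding peak of 17.1 with 6.48, 8.02 and 4.46, whereas glh-1, of the P granules, had one of 17.7 that was lacking in replicates 1 and 2. The muscle gene unc-15, for paramyosin, had a coding peak at rank 1772 that was lacking in replicate 2, and the mitochondrial gene atp-2 one of 18.4 found in replicate 2 alone. Of these genes, csr-1 and hlh-30 alone had support from all 3 replicates.

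The genes named for holding several members were chosen by that count, and most had much exonic sequence away from promoters. Their members per Mb were 127 in dig-1 and 180.5 in vab-10, against 111.9 over all genes. In eel-1, mua-3, mlt-11, fbn-1 and chd-7 the values were 424 to 627. These densities are not separate from the choice. eel-1, a HECT-type ubiquitin ligase gene, held 7 coding members over 12.8 kb of exon, with signals of 10.6 to 13.2 and full replicate support for 0 of them. mua-3, which anchors epidermis to cuticle, held 6 (11.03 to 18.6), and the giant adhesion gene dig-1 held 5 over 39.4 kb (10.6 to 19.3), again with full support for 0. mlt-11, a gene of the molt, held 5 (12.2 to 15.4), and fbn-1, vab-10 and chd-7 held 4 each. In these 7 genes no member was supported by all 3 replicates.

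The exception was unc-62, a homeodomain gene of the Meis family, on chromosome V from 4497461 to 4511449. Its 5 members comprised 3 in a 5' UTR and 2 in the 3' UTR, over 4.41 kb of exon, and 3 of them had full support. The strongest, in the 5' UTR from 4507633 to 4508062, had a signal of 24.0 with 14.5, 10.7 and 9.55 in replicates 1, 2 and 3, and lay 644 bp downstream of an unc-62 start. In the 3' UTR the peak from 4510840 to 4511269 had 20.1 with 11.5, 9.19 and 5.06. Another 3' UTR member and another 5' UTR member overlapped these 2 intervals and drew on some of the same replicate peaks, so the 5 are not 5 separate sites. In all, 271 of the 1908 members overlapped another pooled peak, and 38 lay in exons of 2 protein-coding genes.

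Members lay right up to the limits of the promoter window. The nearest outside were the cdh-4 member, 1 bp past the downstream limit with a signal of 10.5, and the pnp-1 member, at −1009 bp from the start of T21D12.7 (upstream) with 16.9. Just inside, and so not members, were a peak 199 bp downstream of the start of unc-101 (11.9) and one at −990 bp from that of algn-8 (12.5). Within 50 bp beyond the downstream limit lay 57 members, and within 50 bp beyond the upstream limit 17. Of the members, 21 were within 1000 bp of another thresholded summit. The rule bears on this number, since 294 of the 328 autosomal thresholded peaks were in promoter windows, where no member can lie. The same number was not counted for other peaks.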

How the data were processed

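Per the deposited description files, the authors called peaks on each replicate's ce11 alignment against 1 control alignment, and on the 3 alignments together for the pooled list, and thresholded the peaks by IDR. For the aligner, caller, settings and cutoff, no statement was found in the labels or file headers (not given in the sources used here). These values are the signal of each peak as deposited by the authors. They hold no read counts, so depth is unknown, and signals were not compared between lists.

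The 5 ce11 lists were read. No peak ended beyond a WBcel235 chromosome. Genes came from Ensembl release 115 without piRNA genes, and the genome from RefSeq. Coordinates are 1-based. A position was put in a promoter window first, then in coding sequence, then in a UTR or another exon, and otherwise in an intron or between genes. Densities divide summits by the bases of that class. Distances to gene ends use annotated ends of protein-coding genes. Intervals are exact 95% Clopper-Pearson intervals. Replicates were compared by the exact sign-flip test.

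Named are the host genes of all thresholded members, of the 12 strongest coding and 12 strongest UTR members, of up to 8 genes with 4 or more members, of the 2 strongest members of each of 22 gene lists, and of members at the window limits. The text gives the strongest of these. Members and lists were chosen with earlier results of these data known, and the counts at gene ends, the densities by class in replicates and the neighbours named there were added after the first values were seen. Alternatives changed the window, the starts, the summit, the list's length, the overlap rule, the motif window and the replicates. Scripts used Python 3.11.15, pandas 2.3.3, NumPy 2.4.6, SciPy 1.17.1 and matplotlib 3.10.9, and were tested on simulated data.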

Additional observations from a re-analysis of the deposited data

How the results depend on the processing

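The number of members was 1316 to 2256 under the other promoter windows, starts and positions, and 842 in the stronger 50% of the pooled list, where 534 were coding and the median signal was 15.4. The number of thresholded members was 4 with a window of 2000 bp upstream, and 6 to 10 under the other settings. Members with full replicate support numbered 331 with all peaks of each replicate list, 45 with 50% as many replicate peaks, and 235 to 257 when 1 replicate was left out and support by both others was asked for. The support of members minus that of the other autosomal peaks changed sign to 0.306 points with introns and intergenic peaks as the reference, and was −8.17 to −3.55 points without 1 replicate. Coding minus UTR support was −15.2 to −8.70 points without 1 replicate. The share of members with CGTAAA was 1.42% within 25 bp and 5.50% within 100 bp. The share of positions was not counted at these widths. The median G+C was 38.2% within 150 bp. The 3' UTR density over the coding density, for which the alternatives were chosen after seeing the data, was 4.83 in the stronger 50% of the list, 2.57 in the replicate lists and 2.40 to 2.84 without 1 of them (2.46 without replicate 1). It was 3.07 to 3.48 under the other settings, among them 1 peak per run of overlapping peaks. For the values named without a cause, the cause was not tested. The 3 replicates set the smallest p at 0.25, so no comparison between replicates could pass a threshold, and the depth behind a peak is unknown.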
